A study of Mus musculus with 4 samples.

Results

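The 10 genes described here were chosen by name as the ligands, receptors and binding proteins of the insulin-like growth factor (IGF) axis. They were the ligands Igf1 (ENSMUSG00000020053) and Igf2 (ENSMUSG00000048583), the receptors Igf1r (ENSMUSG00000005533) and Igf2r (ENSMUSG00000023830), and the binding proteins Igfbp2 (ENSMUSG00000039323), Igfbp3 (ENSMUSG00000020427), Igfbp4 (ENSMUSG00000017493), Igfbp5 (ENSMUSG00000026185), Igfbp6 (ENSMUSG00000023046) and Igfbp7 (ENSMUSG00000036256). They are 10 of the 31053 genes listed in the count tables and of the 20506 genes with at least 1 UMI (unique molecular identifier, a tag that marks 1 captured RNA molecule). Single-cell RNA-seq libraries were made from the carotid artery of C57BL/6 mice, 11 weeks old before injury by the labels and male by the study's methods, with 1 library from uninjured vessels (day 0) and 1 each from days 3, 7 and 14 following wire injury. Wire injury scrapes the inside of the vessel and removes the endothelium. Vessels of several mice were pooled for each injured time point and thrombosed vessels were left out, so 1 library is 1 pool, and the labels name no transgene, deletion or agent.

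The growth factors encoded by Igf1 and Igf2 bind the receptor tyrosine kinase encoded by Igf1r, which signals through insulin receptor substrates, PI3-kinase and Akt. The receptor encoded by Igf2r takes up and degrades the Igf2 protein and carries mannose 6-phosphate-tagged enzymes to lysosomes. The IGF binding proteins hold the ligands in plasma or in extracellular matrix and control their access to the receptor. Several of them are cleaved by proteases such as Pappa, and Igfbp7 binds the ligands with low affinity. In the vessel wall the IGF axis is known for its effects on growth and survival of smooth muscle cells.

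The libraries of days 0, 3, 7 and 14 left 281, 1403, 2693 and 1029 cells after filtering, with median UMI counts per cell of 7959, 5458, 6347 and 10750. Of the barcodes, 217 occurred in more than 1 library, 152 of them in days 0 and 3 and 64 in days 7 and 14. In 214 of these, the barcode in 1 library held under 10% of the UMIs of its partner in the other, and these shallow copies were removed, 48 from day 0, 104 from day 3 and 62 from day 14. Kept in, copies were 93 of 196 fibroblast-like cells on day 3 and 10 of 22 smooth muscle-like cells on day 0. Their origin was not tested. The cells fell into 30 clusters. Cell classes were named from marker genes, with the 10 IGF axis genes kept out of the clustering, and 920 cells (17.0%) stayed unnamed. Clusters left unnamed for low depth that carried fibroblast markers were 9.96%, 5.20%, 2.82% and 7.48% of the 4 libraries, and those with monocyte/macrophage markers were 12.4% of day 7 and 0.292% of day 14.

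Levels are given in CPM, a gene's UMIs relative to all UMIs summed over the cells of a class in a library, with the exact Poisson 95% interval in brackets. A UMI is counted at the 3' end of an RNA, so a level does not rise with transcript length. Fibroblast-like cells numbered 208, 103, 163 and 472 on the 4 days, and all 10 fibroblast markers were at 50 CPM or more on each day. Smooth muscle-like cells numbered 12, 100, 70 and 74, monocyte/macrophage-like cells 3, 426, 750 and 133, and endothelial-like cells 6, 40, 58 and 19. Neutrophil-like cells were found on days 3 and 7 (233 and 120 cells). These intervals cover counting error only, and with 1 library per day a difference between days cannot be told apart from a difference between libraries.

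Fibroblast-like cells held the highest level of 6 of the 10 genes when each class was averaged over the days on which it had at least 20 cells. These were Igf1 (741 CPM), Igf2r (127 CPM), Igfbp4 (3162 CPM), Igfbp5 (715 CPM), Igfbp6 (783 CPM) and Igf2, the last at 0.476 CPM only. Smooth muscle-like cells were highest for Igfbp2 (219 CPM) and Igfbp7 (4907 CPM), neutrophil-like cells for Igf1r (303 CPM) and endothelial-like cells for Igfbp3 (62.2 CPM over days 3 and 7, against 68.7 CPM in fibroblast-like cells on day 14). Igf1 and its receptor gene Igf1r were thus highest in different classes. With each library clustered on its own, Igf2 was highest in endothelial-like and Igfbp2 in erythroid-like cells, and fibroblast-like cells led for 5 genes.

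**Figure D1:**
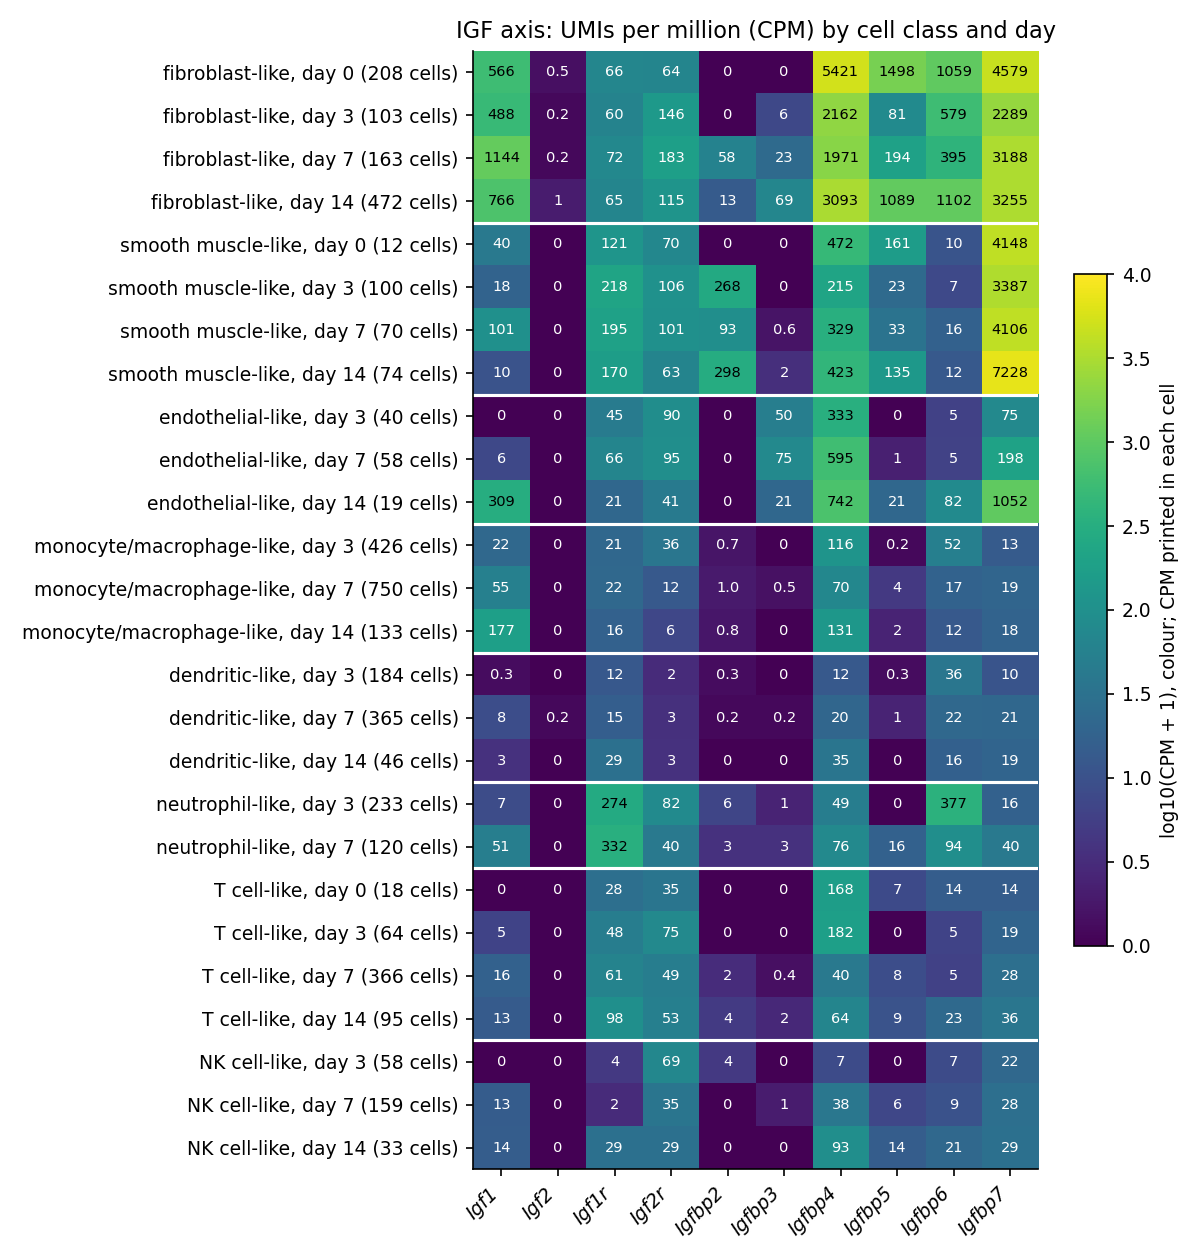
Heat map of the level of each IGF axis gene (columns) in each cell class and day (rows). Levels are CPM of summed UMIs on a log colour scale, with brighter colours for higher levels. Igfbp4 and Igfbp7 are the brightest columns in fibroblast-like rows, and Igfbp7 is also bright in smooth muscle-like rows. Igf2 is dark and close to 0 in all rows.

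Most UMIs of the ligand Igf1 were in fibroblast-like cells. Fibroblast-like cells carried 99.0% of its UMIs in the kept cells on day 0, 80.2% on day 3, 85.2% on day 7 and 94.2% on day 14. These cells held 84.4%, 23.8%, 18.5% and 68.4% of all UMIs of these libraries. Its level in them was 566 CPM (535 to 598) on day 0, 488 CPM (467 to 509) on day 3, 1144 CPM (1115 to 1175) on day 7 and 766 CPM (748 to 784) on day 14. The day 7 library was highest and its interval did not overlap those of the other days. Day 7 was 2.02-fold above day 0 (1.90 to 2.15, exact conditional binomial interval), and day 14 was 1.35-fold above it (1.27 to 1.44). The day 7 difference rested near the fold limit, since the ratio with 10 CPM added was 2.01, 1.99 at a lower clustering resolution, 1.96 without the day 7 cell with the most UMIs and 1.76 without the cluster led by Igfbp5 and Sema3c. On day 3 the direction was not settled, as the ratio to day 0 with 10 CPM added was 0.865 in the whole class, 1.51 without the cluster led by Saa3 and Prg4, 1.28 in the mean of single-cell levels and 1.16 with each library clustered on its own.

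Thinned to 1000 UMIs per cell, Igf1 was seen in 31.2% of fibroblast-like cells on day 0, 38.8% on day 3, 60.7% on day 7 and 42.0% on day 14. The day 7 share was the highest here as well, while the day 3 share ran against the summed level and gives no order. In T cell-like cells, which should lack the transcript, the thinned share was 0%, 0%, 1.38% and 2.20%. Without thinning, 71.2%, 84.5%, 89.0% and 84.3% of the fibroblast-like cells had an Igf1 UMI.

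The other ligand, Igf2, was barely detected. It had 15 UMIs in 9 cells of all 5406, and 9 of these UMIs were in 3 fibroblast-like cells on day 14. H19, the noncoding RNA made from the neighbouring imprinted locus, was in contrast present after injury. H19 was sparse, with 1798 UMIs in 193 of the 5406 kept cells, and it was a leading gene of an unnamed low-depth cluster of 154 cells. It had no UMI in fibroblast-like cells on day 0 and reached 41.7 CPM on day 3, 95.6 CPM on day 7 and 98.9 CPM on day 14. These levels are sums over the class and do not show how many of its cells carried H19. Against a floor of 3 counts in the day 0 sum (1.37 CPM) the levels were 30.5-fold, 70.0-fold and 72.4-fold higher. With 0 UMIs the upper limit of the day 0 interval was 1.68 CPM, so these folds are not lower bounds.

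The IGF1 receptor transcript moved little in fibroblast-like cells. Igf1r was at 66.5, 60.5, 72.4 and 64.7 CPM on days 0, 3, 7 and 14, and the 4 intervals overlapped. Relative to day 0 it was at 0.910 (0.740 to 1.12) on day 3, 1.09 (0.895 to 1.33) on day 7 and 0.973 (0.810 to 1.17) on day 14, so a change of 2-fold lies outside each interval as far as counting error goes. Smooth muscle-like cells carried more of it, at 218 CPM (201 to 236) on day 3, 195 CPM (173 to 218) on day 7 and 170 CPM (148 to 195) on day 14. They were above fibroblast-like cells of the same library by 3.61-fold (3.11 to 4.19), 2.69-fold (2.3 to 3.14) and 2.63-fold (2.24 to 3.09). On day 0 the 12 smooth muscle-like cells gave 121 CPM from 12 UMIs, and its interval (62.3 to 211) took in the levels of days 7 and 14.

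Igf2r was higher in fibroblast-like cells after injury. Its level was 64.2 CPM (54.0 to 75.7) on day 0, 146 CPM (135 to 158) on day 3, 183 CPM (171 to 195) on day 7 and 115 CPM (108 to 122) on day 14. Every injured library was above the uninjured one, and none of the 4 intervals overlapped. The ratio to day 0 was 2.27 (1.89 to 2.75) on day 3, 2.84 (2.38 to 3.42) on day 7 and 1.79 (1.5 to 2.15) on day 14. With 10 CPM added, the day 3 ratio of 2.1 fell to 1.87 without the cluster led by Saa3 and Prg4 and to 1.93 without the one led by Igfbp5 and Sema3c, while day 7 stayed past 2-fold under every alternative.

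The 6 binding proteins fell into groups by their course in fibroblast-like cells. Igfbp4, Igfbp5, Igfbp6 and Igfbp7 were abundant before injury and lower on days 3 and 7, and Igfbp6 was back at its starting level in the class on day 14. Igfbp2 and Igfbp3 had no UMI in any kept cell of day 0 and were found after injury. In the comparison of day 3 with day 0, 1 of the 8 IGF axis genes with at least 20 UMIs was past 2-fold upward (Igf2r) and 2 downward (Igfbp4 and Igfbp5), with 10 CPM added to both levels, where 7.57% of all genes were past 2-fold in either direction. On day 7, 4 of 9 were past it upward (Igf1, Igf2r, Igfbp2 and Igfbp3) and 3 downward (Igfbp4, Igfbp5 and Igfbp6), against 7.01% of all genes. On day 14, 2 of 9 were past it, both upward (Igfbp2 and Igfbp3), against 4% of all genes.

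**Figure D2:**
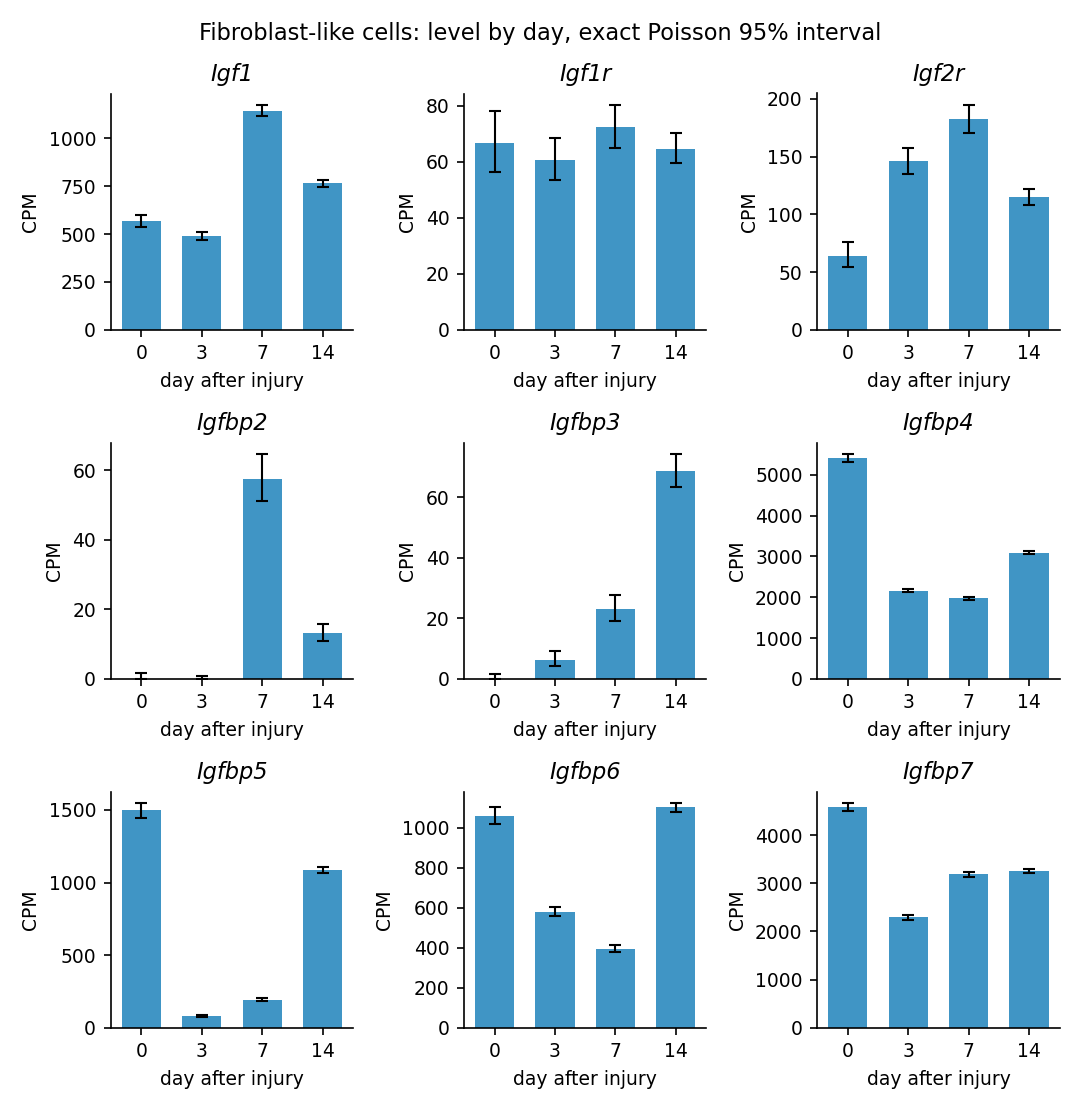
Level of 9 IGF axis genes in fibroblast-like cells on days 0, 3, 7 and 14 (bars, CPM of summed UMIs, 1 library per day) with exact Poisson 95% intervals (whiskers). Igf1 and Igf2r are highest on day 7, Igfbp4, Igfbp5 and Igfbp6 are low on days 3 and 7, and Igfbp3 is highest on day 14.

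The sequences just upstream of the binding protein genes are shown because 2 sets of these genes were past 2-fold on day 7, one downward and one upward. Each is the 150 bases before the annotated RefSeq start (mouse GRCm38.p6), written 5′ to 3′ on the gene's strand, and all 10 genes had an entry in the promoter table. Capitals mark exact matches, on either strand and without overlaps between them, to 3 motifs. The first is TATAAA, which was present in 7.57% of 32851 windows of the same length before annotated starts. The next is GGGCGG, present in 28.6% of them, and the last is CCAAT, present in 24.5%. Reverse complements were counted as matches. The genes past 2-fold downward on day 7 were Igfbp4 (chr11:99041094-99041243, plus strand), Igfbp5 (chr1:72874866-72875015, minus strand) and Igfbp6 (chr15:102144036-102144185, plus strand).
Igfbp4: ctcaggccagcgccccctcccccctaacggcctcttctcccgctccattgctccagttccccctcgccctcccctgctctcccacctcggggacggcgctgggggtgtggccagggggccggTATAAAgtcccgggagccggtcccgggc
Igfbp5: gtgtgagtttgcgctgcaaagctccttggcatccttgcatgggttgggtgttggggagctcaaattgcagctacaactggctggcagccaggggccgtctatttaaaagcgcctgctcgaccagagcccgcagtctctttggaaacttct
Igfbp6: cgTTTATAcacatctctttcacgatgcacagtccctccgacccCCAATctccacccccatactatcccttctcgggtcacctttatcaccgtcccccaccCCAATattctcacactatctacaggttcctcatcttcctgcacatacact
Those past it upward were Igfbp2, with annotated starts after chr1:72824330-72824479 and chr1:72825237-72825386 (plus strand), and Igfbp3 (chr11:7213924-7214073, minus strand).
Igfbp2, start 1: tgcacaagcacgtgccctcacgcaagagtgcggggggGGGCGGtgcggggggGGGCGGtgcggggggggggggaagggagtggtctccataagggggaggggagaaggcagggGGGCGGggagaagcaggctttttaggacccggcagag
Igfbp2, start 2: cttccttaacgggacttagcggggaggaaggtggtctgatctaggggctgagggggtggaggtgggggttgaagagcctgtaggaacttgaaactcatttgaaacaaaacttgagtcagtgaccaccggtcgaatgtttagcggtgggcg
Igfbp3: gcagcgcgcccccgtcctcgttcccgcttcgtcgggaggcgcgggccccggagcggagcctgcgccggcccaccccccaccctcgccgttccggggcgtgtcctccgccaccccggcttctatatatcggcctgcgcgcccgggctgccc
Igfbp4 held TATAAA on its own strand, beginning 28 bases upstream, and Igfbp6 held its reverse complement near the far end of the window and CCAAT at 2 places. The first Igfbp2 window held GGGCGG at 3 places. Igfbp5, Igfbp3 and the second Igfbp2 window held none of these motifs. Igfbp7, which was lower on day 7 but not past 2-fold, was not searched. A match is a description of the letters and not a shown binding site.

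Igfbp4, which encodes a binding protein that holds IGFs away from their receptor until it is cleaved, was the most abundant of the 10 genes in fibroblast-like cells on day 0. Its level was 5421 CPM (5324 to 5519) on day 0, 2162 CPM (2119 to 2207) on day 3, 1971 CPM (1931 to 2010) on day 7 and 3093 CPM (3057 to 3130) on day 14. Day 0 stood above all 3 injured libraries, and day 14 lay between day 0 and the earlier days. The ratio to day 0 was 0.399 (0.388 to 0.410), 0.364 (0.354 to 0.373) and 0.571 (0.558 to 0.583). The fall on day 7 was past 2-fold under every alternative. On day 3 it was smaller in the mean of single-cell levels (0.663 with 10 CPM added) and without the Saa3 and Prg4 cluster (0.633). The thinned share of fibroblast-like cells with an Igfbp4 UMI was 96.5%, 72.8%, 74.2% and 82.7%.

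Igfbp5, whose protein binds extracellular matrix as well as IGFs, was low on days 3 and 7. It was at 1498 CPM (1447 to 1550) on day 0, 80.9 CPM (72.6 to 89.8) on day 3, 194 CPM (182 to 207) on day 7 and 1089 CPM (1067 to 1111) on day 14. Days 3 and 7 were below days 0 and 14, and without 1 cell that held 179 of the 349 UMIs on day 3 that level was 39.5 CPM. The ratio to day 0 was 0.0540 (0.0482 to 0.0603) on day 3, 0.130 (0.121 to 0.139) on day 7 and 0.727 (0.699 to 0.756) on day 14. Few cells held most of it, as the median fibroblast-like cell was at 73.2 CPM on day 0 and at 0 on each later day.

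The cluster led by Igfbp5 and Sema3c moved with this course. It had 27 cells on day 0, 1 on day 3, 7 on day 7 and 46 on day 14, which was 18.8%, 1.05%, 4.57% and 9.92% of the fibroblast-like UMIs. Igfbp5 is among its leading genes, although the 10 genes were not used to form the clusters. It held 75.0% of the class's Igfbp5 UMIs on day 0 and 63.9% on day 14, at 5965 CPM and 7009 CPM. Outside it the fall remained, at a ratio with 10 CPM added of 0.174 on day 3 and 0.361 on day 7. In the cluster led by Rbp4 and Fmo2, the only one with over 50 cells on every day, Igfbp5 was at 461, 189, 235 and 627 CPM. Its ratio to day 0 there was 0.410 (0.354 to 0.473) on day 3, or 0.109 (0.0835 to 0.141) without 1 cell, 0.511 (0.458 to 0.568) on day 7 and 1.36 (1.25 to 1.48) on day 14, so the class and this cluster gave opposite directions on day 14. The class ratio on day 14 with 10 CPM added was 0.729, and 1.06 in the mean of single-cell levels. Fewer cells of a kind and less RNA per cell both enter the sum of a class, and only values within a cluster separate them.

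Igfbp6, which prefers Igf2 among the ligands, was at 1059 CPM (1016 to 1103) on day 0, 579 CPM (556 to 602) on day 3, 395 CPM (377 to 413) on day 7 and 1102 CPM (1080 to 1124) on day 14. The intervals of days 0 and 14 overlapped, and days 3 and 7 were lower. The day 7 ratio to day 0 was 0.373 (0.351 to 0.396). Without the Igfbp5 and Sema3c cluster, which held 57.7% of the class's Igfbp6 UMIs on day 0, the ratio with 10 CPM added was 1.03 on day 3, 0.667 on day 7 and 1.75 on day 14, in place of 0.551, 0.378 and 1.04. With each library clustered on its own, all 3 injured days were below day 0. The class values on days 3 and 14 thus changed direction with the cells counted, and within the Rbp4 and Fmo2 cluster it was 552, 857, 401 and 616 CPM, highest on day 3.

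Igfbp7, a matrix-associated member of the family, was at 4579 CPM (4490 to 4670) on day 0, 2289 CPM (2244 to 2335) on day 3, 3188 CPM (3139 to 3239) on day 7 and 3255 CPM (3218 to 3293) on day 14. All 3 injured libraries were below day 0, with ratios of 0.50 (0.486 to 0.514), 0.696 (0.679 to 0.714) and 0.711 (0.695 to 0.727). None passed 2-fold with 10 CPM added, and in the Rbp4 and Fmo2 cluster the ratios were nearer 1, at 0.752, 0.813 and 0.945.

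Igfbp3, the main carrier of IGFs in plasma, had no UMI in fibroblast-like cells on day 0, and was at 6.26 CPM (4.12 to 9.10) on day 3, 23.0 CPM (19 to 27.7) on day 7 and 68.7 CPM (63.4 to 74.4) on day 14. The level was higher at each later time point. Against a floor of 3 counts on day 0 (1.37 CPM), day 7 was 16.9-fold and day 14 50.3-fold higher. That floor lies below the upper limit of the day 0 interval (1.68 CPM), so these folds are not lower bounds. Both differences stayed past 2-fold under every alternative. Its UMIs were in 4 of 103 cells on day 3, where 1 cell held 21 of 27, in 19 of 163 cells on day 7 and in 92 of 472 cells on day 14. The cluster led by C1qtnf3 and Angptl1, which had 38 cells on day 7 and 249 on day 14 and none before, held 78.8% and 99.5% of them. Its own level was 92.4 CPM and 117 CPM (ratio 1.27, 1.02 to 1.60, or 2.13, 1.60 to 2.90, without 1 cell of day 7), against 2.02 CPM and 0.354 CPM in the Rbp4 and Fmo2 cluster.

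Igfbp2 appeared in fibroblast-like cells on day 7 (57.7 CPM, 51.2 to 64.8) and day 14 (13.1 CPM, 10.8 to 15.7) and had no UMI there on days 0 and 3. The day 7 value came from few cells, since 12 of 163 cells had a UMI and 5 of them held 227 of 283. Of the day 7 UMIs, 56.5% were in the Rbp4 and Fmo2 cluster and 41.7% (118 UMIs) in 1 cell of a cluster led by Timp1 and the histone gene Hist1h2ap. Without that cell the day 7 level was 34.1 CPM (29.1 to 39.8). The day 14 ratio to day 0 with 10 CPM added went from 2.31 to 1.90, below 2-fold, without the cell with the most UMIs, and to 1.85 in the mean of single-cell levels. Smooth muscle markers moved with it, with the 10 markers summing to 1373 CPM in fibroblast-like cells on day 7 and to 361 to 419 CPM on the other days. On day 7, 3 of the 10 were at 50 CPM or more and none was at 0, and in smooth muscle-like cells the same sum was 16366 CPM. Their part in the result was not tested.

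Differences between fibroblast-like clusters were seen for other genes too. Within the Rbp4 and Fmo2 cluster Igf1 was at 664, 1031, 1484 and 587 CPM on the 4 days. Day 7 was again the highest, 2.23-fold above day 0 (2.09 to 2.39), and day 14 was below day 0 (0.884, 0.820 to 0.953). On day 14 the C1qtnf3 and Angptl1 cluster held 72.2% of the class's Igf1 UMIs at 949 CPM. The Saa3 and Prg4 cluster, which held 62.2% of the class's UMIs on day 3 and was also led by acute-phase and immune genes, had Igf1 at 263 CPM on day 3 and 586 CPM on day 7.

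The Igfbp4 level in the Rbp4 and Fmo2 cluster was 5627, 3923, 2107 and 4362 CPM, lowest on day 7. In the Igfbp5 and Sema3c cluster it went from 4532 CPM on day 0 to 1342 CPM on day 14, a ratio of 0.296 (0.275 to 0.319), while Igfbp5 there was 1.17-fold higher (1.12 to 1.23). Igf2r was higher on day 7 than on day 0 in the Rbp4 and Fmo2 cluster (67.3 and 137 CPM, 2.04-fold, 1.65 to 2.54) and higher on day 14 than on day 0 in the Igfbp5 and Sema3c cluster (50.8 and 139 CPM, 2.73-fold, 1.71 to 4.57). In the C1qtnf3 and Angptl1 cluster, Igfbp6 went from 413 CPM on day 7 to 1167 CPM on day 14 (2.82-fold, 2.55 to 3.13) and Igfbp5 from 124 to 333 CPM (2.69-fold, 2.24 to 3.27). For Igfbp5 the mean of single-cell levels went the other way, from 664 to 369 CPM.

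**Figure D3:**
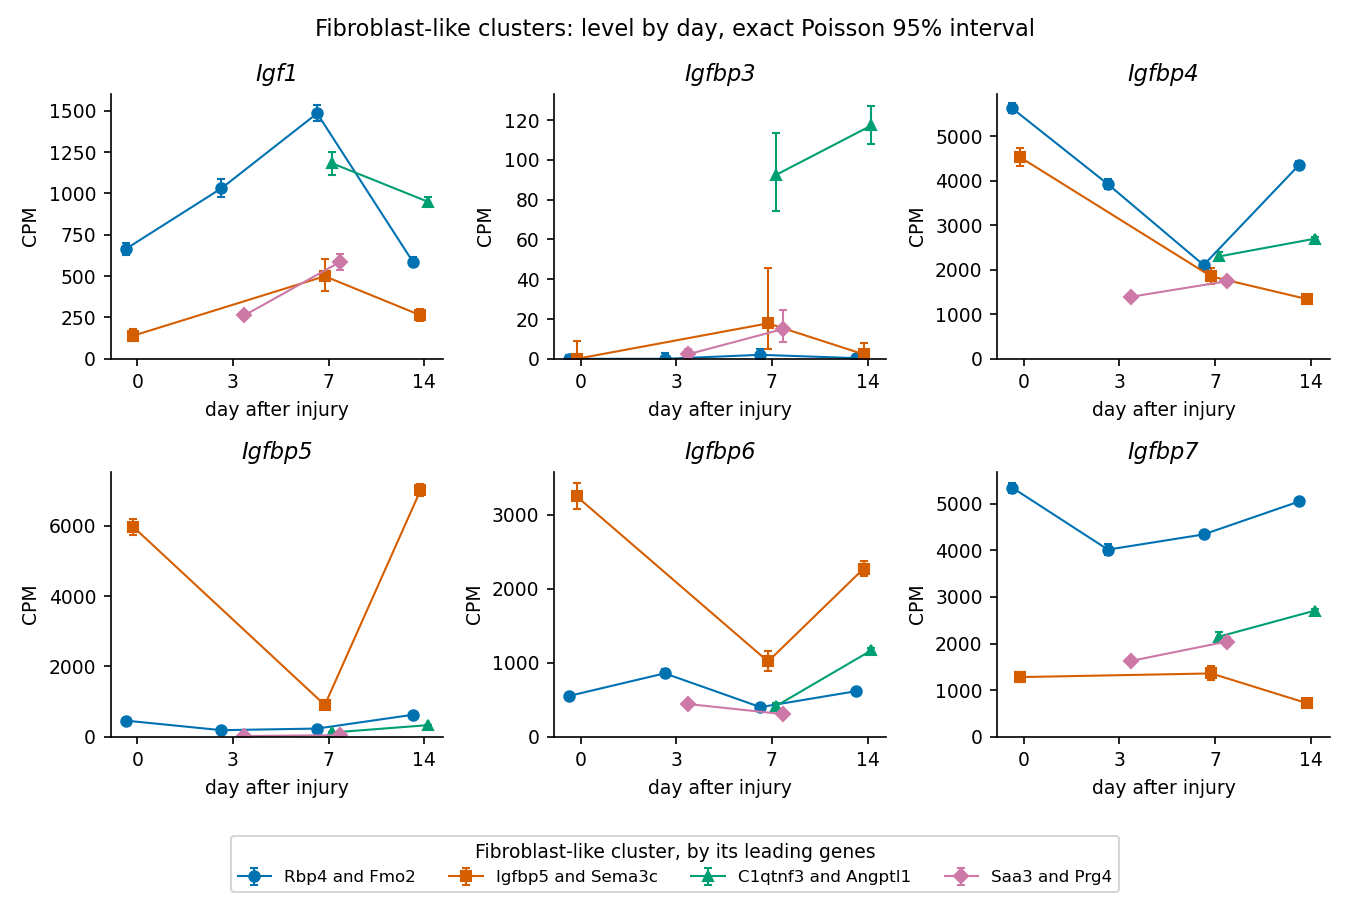
Level of 6 IGF axis genes (panels, CPM of summed UMIs, exact Poisson 95% intervals) by day in the 4 fibroblast-like clusters, named by their leading genes and drawn where a cluster had at least 5 cells on that day. Igfbp5 sits highest in the Igfbp5 and Sema3c cluster on days 0 and 14, and Igfbp3 in the C1qtnf3 and Angptl1 cluster on days 7 and 14.

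Smooth muscle-like cells carried mainly Igfbp7, Igfbp4, Igfbp2 and Igf1r. On day 0 they were only 12 cells with 99565 UMIs, so the comparisons with day 0 rest on few counts. Of 7 IGF axis genes tested on day 3, 1 was past 2-fold upward (Igfbp2) and 2 downward (Igfbp4 and Igfbp5), where 26.1% of all genes were past it. On day 7 it was 2 of 8 upward (Igf1 and Igfbp2) and 1 downward (Igfbp5) against 25.3%, and on day 14 it was 1 of 6, again Igfbp2, against 16.3%. From day 3 to day 14, where both sums were deeper, 2 of 8 were past 2-fold (Igfbp5 and Igfbp7, both upward) against 5.28% of all genes, and without 1 cell Igfbp5 was not.

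Igfbp2 had its highest class level in smooth muscle-like cells. It had 0 UMIs in them on day 0, where 3 counts would be 30.1 CPM and the interval reached 37.05 CPM. It was at 268 CPM (249 to 288) on day 3, 92.5 CPM (78.1 to 109) on day 7 and 298 CPM (268 to 330) on day 14. The intervals of days 3 and 14 overlapped, and day 7 was lower than both. Against a floor of 3 counts, which lies below the upper limit of that interval, these were 8.89-fold, 3.07-fold and 9.88-fold higher than day 0. The class held 98.8% of the Igfbp2 UMIs of the library on day 3, 29.9% on day 7 and 75.6% on day 14. It was above fibroblast-like cells by 1.6-fold (1.3 to 1.97) on day 7 and 22.8-fold (18.4 to 28.3) on day 14. Its UMIs were in 47 of 100 cells on day 3, 14 of 70 on day 7 and 20 of 74 on day 14, and 1 cell held 261 of the 369 UMIs on day 14. Without it the day 14 level was 91.7 CPM (75.2 to 111), which overlaps day 7, and 7.02-fold that of fibroblast-like cells (5.35 to 9.20). Without the fibroblast-like cell with the most UMIs, the day 7 ratio was 2.71 (2.15 to 3.41). With the shallow copies kept, day 0 was no longer at 0, and the ratios with 10 CPM added fell from 27.8, 10.3 and 30.8 to 5.71, 2.43 and 6.52.

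Igfbp7 was higher on day 14 than at the other time points. It was at 4148 CPM (3758 to 4568) on day 0, 3387 CPM (3318 to 3457) on day 3, 4106 CPM (4006 to 4207) on day 7 and 7228 CPM (7079 to 7379) on day 14. The day 14 level was 2.13-fold that of day 3 (2.07 to 2.20) and 1.74-fold that of day 0 (1.58 to 1.93). It was above that of fibroblast-like cells on days 3, 7 and 14, by 1.48-fold, 1.29-fold and 2.22-fold. On day 14 the summed smooth muscle markers were also higher, at 40799 CPM against 22475 CPM on day 3 and 16366 CPM on day 7, and fibroblast markers in the class summed to 6423, 6021 and 12259 CPM on these days.

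Igfbp5 in smooth muscle-like cells was at 161 CPM (91.9 to 261) on day 0, 23.4 CPM (18.0 to 29.9) on day 3, 32.9 CPM (24.6 to 43.2) on day 7 and 135 CPM (115 to 157) on day 14. Days 3 and 7 were lower than days 0 and 14, but the ratio of day 7 to day 0 with 10 CPM added went from 0.252 to 0.756 in the mean of single-cell levels. The ratio of day 3 to day 0 was 0.145 (0.0831 to 0.270), from 16 UMIs on day 0, and that of day 14 to day 3 was 5.76 (4.29 to 7.81). On day 14, 1 cell held 108 of the 167 UMIs, and without it the level was 47.8 CPM and the ratio to day 3 was 2.05 (1.41 to 2.96), or 1.73 with 10 CPM added. Igfbp4 was at 472, 215, 329 and 423 CPM on the 4 days. Its lower level on day 3 turned to a higher one (1.44 with 10 CPM added) in the mean of single-cell levels and did not pass 2-fold with copies kept (0.611), with median-of-ratios scaling (0.504) or without the day 0 cell with the most UMIs (0.636).

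Igf1 in smooth muscle-like cells was low, at 40.2 CPM (4 UMIs), 17.9 CPM, 101 CPM and 9.68 CPM. On day 7, 1 cell of the cluster led by Timp1 and Hist1h2ap held 78 of the 159 UMIs. Without it the level was 53.0 CPM (42.1 to 65.8) and the ratio to day 0 with 10 CPM added was 1.25. Without all cells of cycling clusters the ratio to day 0 with 10 CPM added fell from 2.21 to 1.51. All 8 cycling markers were at 50 CPM or more in the class on day 7, against none of 8 on day 14, and fibroblast markers in the class summed to 12259 CPM with 7 of 10 at 50 CPM or more. The part of these markers in the Igf1 value was not tested. Fibroblast-like cells of the same library were at 1144 CPM.

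**Figure D4:**
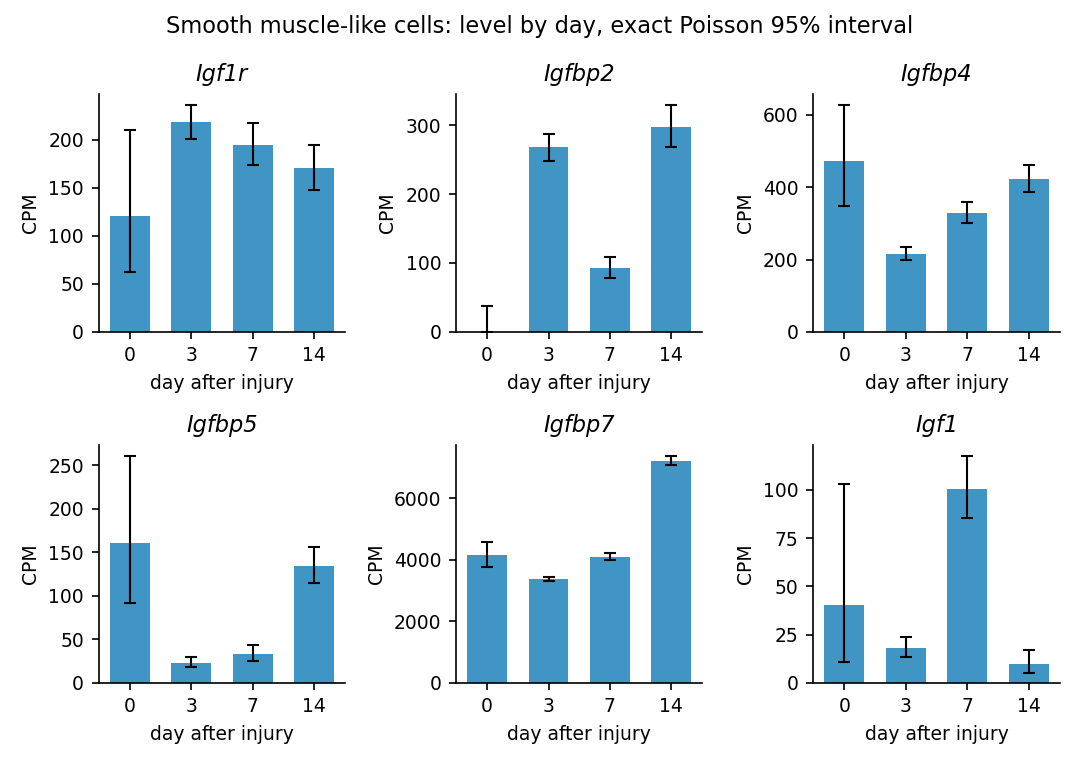
Level of 6 IGF axis genes in smooth muscle-like cells on days 0, 3, 7 and 14 (bars, CPM of summed UMIs, 1 library per day) with exact Poisson 95% intervals (whiskers). Igfbp2 is at 0 on day 0 and 268, 92.5 and 298 CPM afterwards, Igfbp7 is highest on day 14, and the day 0 whiskers are wide because 12 cells stand behind them.

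Endothelial-like cells had the highest mean level of Igfbp3, taken over days 3 and 7. It was at 49.7 CPM (23.9 to 91.5) on day 3 and 74.7 CPM (56.9 to 96.4) on day 7, above fibroblast-like cells of the same libraries by 7.95-fold (3.43 to 17.0) and 3.24-fold (2.33 to 4.48). The day 3 level rested on 10 UMIs, and 1 fibroblast-like cell of that day held 21 of the 27 UMIs of its class. Without that cell the day 3 fold would be higher. On day 7, 8 of 58 endothelial-like cells had a UMI and 1 of them held 34 of 59. Without it the level was 31.7 CPM and 1.38-fold that of fibroblast-like cells (0.855 to 2.14). On day 14 they had 1 Igfbp3 UMI, while fibroblast-like cells were at 68.7 CPM. Igfbp4 was at 333 CPM on day 3 and 595 CPM on day 7. Of 5 IGF axis genes tested between days 3 and 7, 1 was past 2-fold, against 17.3% of all genes. This was Igfbp7, at 74.6 CPM (41.8 to 123) and 198 CPM (168 to 231), a ratio of 2.65 (1.56 to 4.84). On day 7, 1 cell held 64 of the 156 UMIs and 5 cells held 140, and without the first the ratio was 1.63 (0.941 to 3.04). With 10 CPM added it was 1.82 under a stricter cell filter. Endothelial-like cells were shallow on each of these days, with median UMI counts of 1112.5, 1862.5 and 876 on days 3, 7 and 14. Deep cells thus weigh heavily in their sums, and the mean of single-cell Igfbp3 levels was 293 CPM on day 3 and 426 CPM on day 7. In the 19 cells of day 14, monocyte/macrophage markers summed to 4867 CPM against 184 to 220 CPM on days 3 and 7. Of these markers, 9 of 16 were at 50 CPM or more and 5 at 0. Igf1 at 309 CPM and Igfbp7 at 1052 CPM in these cells stand beside that, and the part of these markers in them was not tested.

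In monocyte/macrophage-like cells Igf1 was higher in each later library. Their level was 21.6 CPM (17.5 to 26.4) on day 3, 54.8 CPM (49.9 to 60.1) on day 7 and 177 CPM (155 to 201) on day 14, each interval above that of the earlier library. On day 7 neutrophil-like cells were at 51.2 CPM (30.9 to 80.0), which overlaps. Day 7 was 2.54-fold above day 3 (2.03 to 3.20; with 10 CPM added 2.05, and 1.97 either without the cell with the most UMIs or in the mean of single-cell levels) and day 14 was 8.19-fold above it (6.43 to 10.5). The day 14 difference was past 2-fold under every alternative. Of 7 IGF axis genes tested, 1 was past 2-fold upward on day 7 (Igf1) and 2 downward (Igf2r and Igfbp6), against 2.26% of all genes, and on day 14 it was 1 and 2 of 6, the same genes, against 5.5%.

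The cluster led by Ms4a7 and C1qa, which carries complement and resident macrophage genes, held this signal. It had 47, 252 and 114 cells on days 3, 7 and 14, with Igf1 at 8.85 CPM (5 UMIs), 111 CPM and 203 CPM. It held 82.9% of the class's Igf1 UMIs on day 7 and 95.7% on day 14. Day 14 was 22.9-fold above day 3 (9.68 to 71.3) and 1.83-fold above day 7 (1.54 to 2.17). The cluster led by Plac8 and Cxcl9 was at 1.91 to 9.78 CPM. T cell-like cells of the same libraries were at 5.34, 16.3 and 13.2 CPM. Beside Igf1, Igfbp7 was low in these cells, with 1.66, 2.87 and 10.0 Igf1 UMIs per Igfbp7 UMI in monocyte/macrophage-like cells against 0.213, 0.359 and 0.235 in fibroblast-like cells. The thinned share of these cells with an Igf1 UMI was 2.86%, 4.17% and 12.2%.

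Igf2r and Igfbp6 ran the other way in monocyte/macrophage-like cells. Igf2r was at 36.0, 12.1 and 6.16 CPM on days 3, 7 and 14, and Igfbp6 at 52.2, 17.4 and 12.3 CPM. Day 3 was the highest for both. The ratio of day 14 to day 3 was 0.171 (0.0725 to 0.345) for Igf2r, from 8 UMIs on day 14, and 0.236 (0.133 to 0.391) for Igfbp6. The lower Igf2r on day 7 did not pass 2-fold in 6 of 14 alternatives, and its day 14 ratio with 10 CPM added went from 0.351 to 0.568 with a cell filter of 500 genes and 10% mitochondrial UMIs. The day 7 ratio of Igfbp6 went from 0.441 to 0.515 with each library clustered on its own.

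Neutrophil-like cells had high Igf1r and Igfbp6. Igf1r was at 274 CPM (236 to 317) on day 3 and 332 CPM (276 to 396) on day 7, 13.2-fold (10.3 to 17.2) and 15.4-fold (12.1 to 19.5) above monocyte/macrophage-like cells of the same library. Thinned, it was seen in 22.1% and 21.3% of the cells, against 2.62% and 1.88% of monocyte/macrophage-like cells. Unthinned shares were 42.1% and 44.2%. Igfbp6 was at 377 CPM (332 to 427) on day 3 and 94.4 CPM (65.8 to 131) on day 7. This was 7.22-fold (6.02 to 8.67) and 5.42-fold (3.63 to 7.89) above monocyte/macrophage-like cells. On day 3 these cells had 23.0 Igfbp6 UMIs per Igfbp7 UMI, against 0.253 in fibroblast-like cells, and fibroblast markers in them summed to 832 CPM against 43976 CPM in fibroblast-like cells. Monocyte/macrophage markers summed to 3486 CPM in them on day 3 and 3811 CPM on day 7, against 27255 and 22936 CPM in that class itself.

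T cell-like cells had Igf1r at 28.0, 48.1, 60.9 and 98.3 CPM on the 4 days, the first from 4 UMIs. The small cluster led by the gamma-delta T cell receptor gene Trdc and by Cd163l1 was at 302 CPM on day 7 (26 cells) and 345 CPM on day 14 (16 cells). The cluster led by Icos and Cd3g was at 81.8 CPM and 118 CPM on these days, and the one led by Ccl5 and Cd3d at 4.67 CPM and 5.94 CPM. Igfbp4 in the Icos and Cd3g cluster was at 508 CPM on day 3 (62 UMIs in 5 of 21 cells) and 46.0 CPM on day 7.

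**Figure D5:**
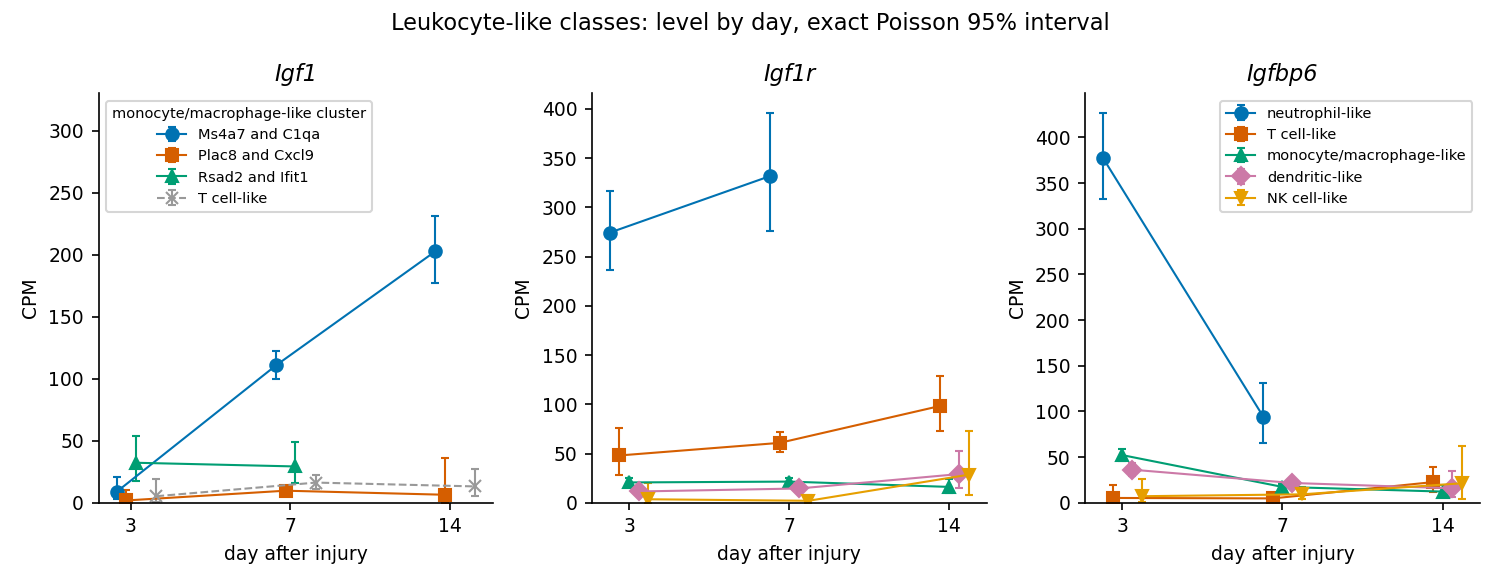
Level (CPM of summed UMIs, exact Poisson 95% intervals) on days 3, 7 and 14, drawn at equal spacing, of Igf1 in 3 monocyte/macrophage-like clusters and T cell-like cells, and of Igf1r and Igfbp6 in 5 leukocyte classes. Igf1 climbs in the Ms4a7 and C1qa cluster to 203 CPM, and Igf1r and Igfbp6 are highest in neutrophil-like cells.

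The rest of the pathway was followed with 35 further genes, covering insulin receptor substrates, adaptor proteins, PI3-kinase and Akt genes, binding protein proteases and growth hormone signalling. In fibroblast-like cells, 2 of 25 tested were past 2-fold upward on day 3 (H19 and Igf2bp2) and 4 downward (Htra1, Pik3r1, Foxo1 and Stc2), where 7.57% of all genes were past it in either direction, with a median log2 ratio of -0.21 against -0.07 over all genes. On day 7, 3 of 26 were upward (H19, Grb10 and Pappa) and 1 downward (Stc2), against 7.01%, with a median of 0.15 against -0.03. On day 14, 2 of 26 were upward (H19 and Grb10) and 1 downward (Stc2), against 4%, with a median of 0.04 against -0.02. Igfbp1 and Ins1 of the family had no UMI.

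Htra1, a serine protease that cleaves binding proteins, was at 804 CPM on day 0 and 231 CPM on day 3 in fibroblast-like cells (ratio 0.288, 0.266 to 0.311), and at 543 CPM on day 7. Pik3r1, the regulatory subunit of PI3-kinase, went from 188 to 62.3 CPM on day 3 (0.332, 0.284 to 0.388), and Foxo1, a transcription factor inhibited by Akt, from 115 to 36.4 CPM (0.317, 0.258 to 0.388). Grb10, an adaptor that binds the receptors and dampens their signal, was at 73.8 CPM on day 0, 161 CPM on day 7 and 177 CPM on day 14. Both later levels were above day 0, by 2.19-fold (1.84 to 2.60) and 2.41-fold (2.05 to 2.85). Stc2, an inhibitor of Pappa, was at 27.8 CPM on day 0 and at 3.83 to 5.91 CPM on the 3 injured days. Pappa, which cleaves Igfbp4 and Igfbp5, was at 5.01 CPM on day 0, 23.6 CPM on day 7 and 5.18 CPM on day 14. Stc2, Pappa, Igf2bp2, Irs1, Mtor, Grb14 and Insr lie outside the naming rule and were chosen after their values were seen, to complete the counts.

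In smooth muscle-like cells, 6 of 21 were past 2-fold downward on day 3 (Irs2, Socs2, Foxo1, Foxo3, Mtor and Grb14) and 2 upward, against 26.1% of all genes in either direction. On day 7 it was 5 of 21 downward (Irs2, Socs2, Foxo3, Mtor and Grb14) and 4 upward, against 25.3%, and on day 14 it was 4 of 18 downward (Irs2, Socs2, Foxo3 and Mtor) and 2 upward, against 16.3%. The upward genes included Ghr on all 3 days and Grb10 and Irs1 on day 7. Irs2, an insulin receptor substrate, was at 372 CPM on day 0 (37 UMIs) and at 101, 83.6 and 86.3 CPM afterwards. Socs2, an inhibitor of growth hormone signalling, was at 171 CPM on day 0 (17 UMIs) and at 65.4, 35.5 and 66.9 CPM. The day 0 level of the growth hormone receptor gene Ghr rested on 1 UMI. Its day 3 ratio was 5.60 (0.990 to 223), with an interval that includes 1. From day 3 to day 14, only Igf2bp2 of 21 was past 2-fold, downward, against 5.28% of all genes. In monocyte/macrophage-like cells, none of 19 was past it from day 3 to day 7, against 2.26% of all genes, and Irs2 alone of 16 from day 3 to day 14 (23.9 and 67.0 CPM, 2.81-fold, 2.09 to 3.76), against 5.5%. In endothelial-like cells, 2 of 14 were past it upward from day 3 to day 7 (Insr and Pik3r1), against 17.3% of all genes in either direction.

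Genes with the most similar pattern were found by Pearson correlation of log2(CPM + 10) over 31 class-by-day sums among 7282 genes. The sums share libraries and cell classes, so these values are descriptions. The nearest genes were Olfml3 (0.887), Gpnmb (0.880) and C4b (0.874) for Igf1, and Lama2 (0.955), C1qtnf2 (0.94) and Islr (0.937) for Igfbp5. They were Col15a1 (0.970), Timp3 (0.963) and Bgn (0.963) for Igfbp7, and Mgst1 (0.897), Mfap5 (0.895) and Serpinb6a (0.894) for Igfbp4. Those for Igfbp2 included Tnc (0.848) and Fgf2 (0.830). For Igfbp6 they were Cdc42ep2 (0.884), F3 (0.873) and C3 (0.865), for Igf2r Ifi27 (0.831), Ccdc127 (0.817) and Fam92a (0.809), and for Igf1r Gm12840 (0.799), Sgms2 (0.775) and Map1lc3b (0.767). Igf2 (15 UMIs in all kept cells) and Igfbp3 (857) lay under the minimum of 1000 UMIs for this search.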

How the data were processed

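Counts were deposited by the authors as raw UMI counts per gene and barcode for 1 library per time point. Per the file headers they came from Cell Ranger 3.0.2, while the study's methods name another version. The labels name a GRCh38 build for these mouse samples, so no coordinate was taken from the counts.

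Barcodes with under 200 genes or over 20% mitochondrial UMIs (453 cells) and the 106 highest-scoring doublets (0.8% per 1000 barcodes; the caller's own threshold marked 15) were removed. The IGF axis genes and 35 further pathway genes were left out of the 2000 variable genes. Cells were clustered with scanpy 1.11.5 and leidenalg 0.10.2 (30 components, 15 neighbours, resolution 1) and named where at least 3 markers were found. Cells of clusters led by cycling genes took the class of at least 60% of their neighbours. UMIs were summed per class and day. With no replicates no test was run, and "past 2-fold" was a ratio with 10 CPM added, for genes with at least 20 UMIs over both sums. Genes of the further list were named where they passed it in fibroblast-, smooth muscle- or monocyte/macrophage-like cells, up to 10 by UMIs. The scripts were tested on simulated data.

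The genes and lists were chosen with earlier results of these data known. Removing shallow copies, the depth limit on naming and 6 of the 17 alternatives were chosen after seeing the data. Some items are not reported here.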

Additional observations from a re-analysis of the deposited data

Results flagged for a closer look

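Several genes went in opposite directions between the same libraries in 2 cell classes. None of these differences was tested, since each day has 1 library. Ratios have 10 CPM added to both levels.

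For Igfbp2, day 7 against day 3 gave 6.77 in fibroblast-like and 0.369 in smooth muscle-like cells. Day 14 against day 7 gave the opposite, with 3.001 in smooth muscle-like and 0.341 in fibroblast-like cells. On day 14, 1 smooth muscle-like cell held 261 of 369 UMIs, and without it the ratio was 0.99. On day 7, 1 fibroblast-like cell held 118 of 283, and without it the ratios in that class were 4.41 and 0.52.

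For Igfbp4, day 7 against day 3 gave 2.795 in NK cell-like and 0.259 in T cell-like cells. The NK cell-like value rested on 2 UMIs in 58 cells on day 3 (7.24 CPM, 0.877 to 26.2) and 37 UMIs on day 7 (38.2 CPM, 26.9 to 52.7). Day 14 against day 3 gave 2.19 in endothelial-like and 2.003 in dendritic-like cells, against 0.387 in T cell-like cells, where 1 cell held 28 of the 68 UMIs of day 3. Without it the T cell-like ratios were 0.417 and 0.623, the second no longer past 2-fold, and the dendritic-like ratio was 1.91 without its top cell of day 14.

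For Igf1, day 14 against day 7 gave 19.55 in endothelial-like and 2.885 in monocyte/macrophage-like cells, against 0.178 in smooth muscle-like cells, where 1 cell held 78 of the 159 UMIs on day 7 and the ratio without it was 0.313. The endothelial-like value rested on 5 UMIs on day 7 and 15 on day 14, of which 1 cell held 8, and was 15.8 without that cell. The 19 endothelial-like cells of day 14 also carried monocyte/macrophage markers at a summed 4867 CPM, whose part in these values was not tested.

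Outside the named classes, a cluster of 54 cells led by C7 and Inmt held Igfbp4 at 4641 CPM (4104 to 5229). The fibroblast-like cluster led by Rbp4 and Fmo2 was at 3896 CPM over all days. Within days the intervals overlapped, with 5704 against 5627 CPM on day 0 and 4137 against 4362 CPM on day 14. Of the 54 cells, 24 were from day 0.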

How the results depend on the processing

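Over 17 alternatives, 407 of 437 values of the 28 ratios past 2-fold stayed past it, and 14 of the 28 did so in every alternative that gave a value. Of 164 counts over IGF axis genes, 150 lay within 1.5 times the reported count. In fibroblast-like cells, day 3 against day 0 gave 5 genes in place of 3 with 0 CPM added, where 19.9% of all genes were past 2-fold, and day 14 against day 0 gave 4 in place of 2 with each library clustered on its own. With a cell filter of 500 genes and 10% mitochondrial UMIs, smooth muscle-like cells gave 6 in place of 3 on day 3 and 5 in place of 3 on day 7, and endothelial-like cells 2 in place of 1 from day 3 to day 7. With the mean of cell CPM, it was 3 in place of 1 both in smooth muscle-like cells on day 14 and in endothelial-like cells from day 3 to day 7. The minimum of 5 UMIs, which tests more genes, gave 2 in place of 1 in smooth muscle-like cells on day 14. Without the cell with the most UMIs of each gene on the later day, fibroblast-like cells gave 1 in place of 2 on day 14, smooth muscle-like cells 2 in place of 1 on day 14 and endothelial-like cells 0 in place of 1 from day 3 to day 7. Without that of the earlier day, smooth muscle-like cells gave 5 in place of 3 on day 3 and 6 in place of 3 on day 7, and endothelial-like cells 3 in place of 1. Among the ratios past 2-fold, 1 changed direction, as Igfbp4 in smooth muscle-like cells on day 3 against day 0 was 0.468 and became 1.44 with the mean of cell CPM. Apart from the genes tested and the single cells left out, the cause was not tested. No paired analysis was possible because each day has 1 library and no test was run. The 12 smooth muscle-like cells of day 0 set the depth of every comparison with that day in the class.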
